A study of Sus scrofa with 6 samples.

Results

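Prostaglandin genes were read on Affymetrix porcine arrays of renal medulla from 3 Sham pigs and 3 CPB pigs, with 1 array per animal. The members were 10 genes of prostaglandin synthesis, breakdown and reception, and every probe set (a group of probes that reads 1 transcript) that the array annotation gives 1 of these symbols and no other was taken. That found 8 probe sets for 6 of the 10 genes, out of 23999 probe sets and 6765 named genes. PTGS1 and PTGFR each had a pair of probe sets, and PTGS2, PTGES, PTGDS and PTGER3 had 1 each. PTGIS, PTGER2, PTGER4 and HPGD were named by no probe set and were not analysed here. All animals were adult female Large White-Landrace crossbred pigs (White-Landrace crossbred in the labels) that had general anaesthesia for 2.5 hours, a neck dissection and systemic heparin. The CPB group was also on cardiopulmonary bypass for those 2.5 hours, and the Sham group was not. Outer medulla was taken 24 hours after the intervention, so both groups also share the recovery and a second anaesthetic.

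Prostaglandins are short-lived lipid messengers made from arachidonic acid. The cyclooxygenases PTGS1 and PTGS2 make the shared precursor, terminal synthases such as PTGES and PTGDS turn it into individual prostaglandins, and receptors of the PTGER and PTGFR families read them on nearby cells. In the renal medulla prostaglandin E2 from interstitial cells and collecting ducts is known to widen vessels and to limit the reabsorption of salt and water.

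The authors had normalised the 6 arrays together with RMA, which corrects the background, makes the distributions equal and merges the probes of a probe set into 1 value. Intensities are given on the linear scale as deposited, and differences as CPB minus Sham on the log2 scale. A probe set met the study's threshold when limma's moderated test gave an unadjusted p under 0.05 and the difference was at least 1.6-fold. Precision is limited by the 3 arrays of each group, for which an exact two-sided permutation test cannot give a p below 0.1. Of the genes checked as a sign of medulla, UMOD, SLC12A1 and AQP2 were named by no probe set, and AQP3, a water channel of the collecting duct, ranged from 1047.7 in Sham 2 to 5436.8 in CPB 2. The arrays differed in other tissue markers as well. LRP2, an endocytic receptor of the proximal tubule, found mainly in cortex, was at 180.8, 2389.6 and 898.5 in Sham 1 to 3 and at 2468.8, 169.2 and 2740.2 in CPB 1 to 3.

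None of the 8 prostaglandin probe sets met the study's threshold in limma. Over all probe sets 0.304% met it. The mean was lower in CPB for 5 of the 8 and higher for 3, and the median difference was -0.155 on the log2 scale, against 0.027 over all probe sets. PTGS2 had the largest difference (-0.63), followed by PTGER3 (-0.54) and PTGES (-0.32). The groups overlapped for each of the 8, while 5.27% of all probe sets had no overlap. No member had an unadjusted p under 0.05, against 1.4% of all probe sets, and the smallest was 0.192. Adjusted p-values from limma lay between 0.995 and 0.997 for the members, and 0% of all probe sets passed an adjusted p of 0.05. The methods' t-test, on log2 or on linear values, also called none of the 8. For each of the 8 the spread within 1 of the groups, as the SD of log2 intensity, exceeded the difference between the groups.

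**Figure D1:**
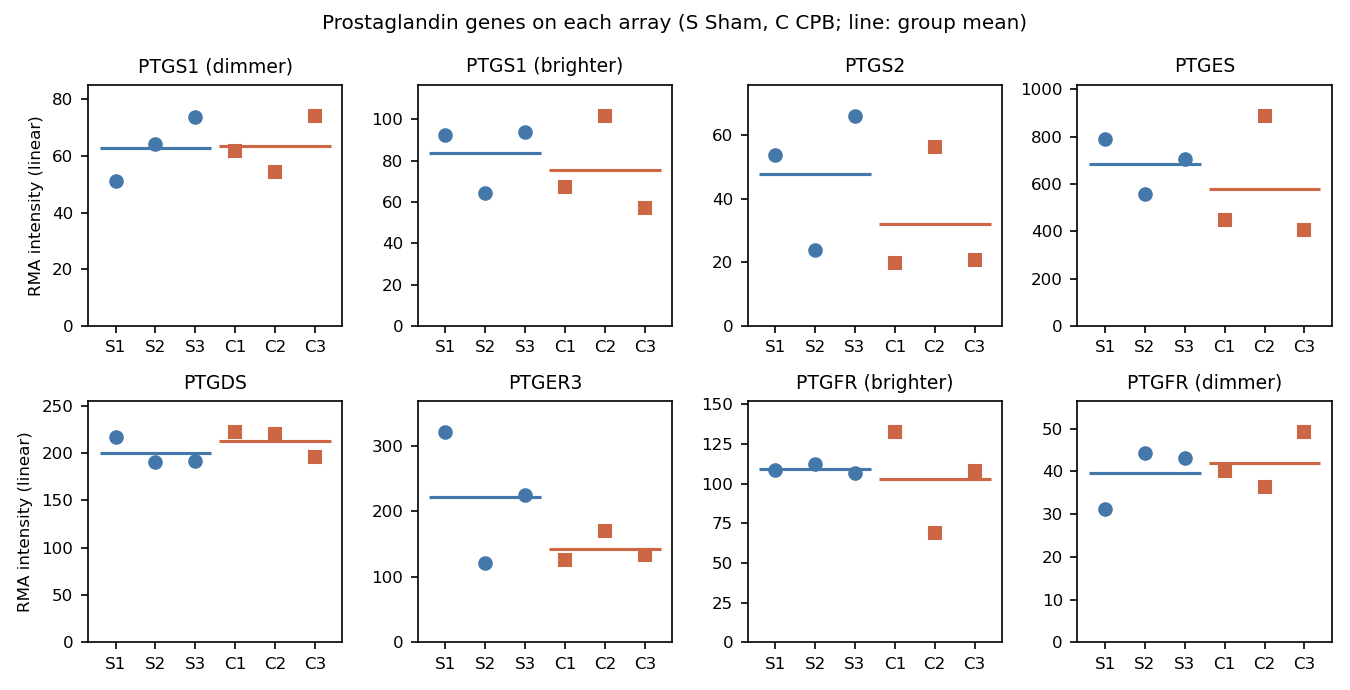
RMA intensity (linear scale, axes from 0) of the 8 prostaglandin probe sets in Sham 1 to 3 (S1 to S3, circles) and CPB 1 to 3 (C1 to C3, squares), with a line at each group mean. PTGS2 and PTGES are high in CPB 2 and low in the other CPB arrays, and the groups overlap in every panel.

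PTGS2, the inducible cyclooxygenase, had intensities of 53.7, 24 and 66.1 in Sham 1, 2 and 3. In CPB 1, 2 and 3 it had 19.7, 56.3 and 20.6. Sham 2 lay near the low CPB arrays and CPB 2 lay within the range of the high Sham arrays, so the groups overlapped. The Sham mean was 47.9 ± 21.6 (SD, n = 3), the CPB mean 32.2 ± 20.9 (SD, n = 3). On the log2 scale they differed by -0.63 (standard error 0.55, 95% confidence interval -1.98 to 0.71). That interval reaches from a difference well beyond the 1.6-fold minimum in the lower direction to one in the higher direction. PTGS2 had the widest range of the 8 probe sets, with a 3.36-fold span from CPB 1 to Sham 3. Its probe set was dim, since 23.6% of all probe sets had a lower mean log2 intensity. The deposited values carry no detection calls, so whether the low arrays stand above background is not known.

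PTGS1, the cyclooxygenase that most tissues make constantly, was read by probe sets that ordered the arrays differently. On the brighter probe set it had 92.5, 64.2 and 93.9 in Sham 1 to 3 and 67.1, 101.6 and 57.2 in CPB 1 to 3. Sham 1, Sham 3 and CPB 2 were the high arrays, as for PTGS2. On the dimmer probe set it had 51.1, 64.1 and 73.6 in Sham 1 to 3 and 61.9, 54.4 and 74.1 in CPB 1 to 3. Here Sham 1 and CPB 2 were the lowest arrays. The differences were -0.17 (standard error 0.27, 95% confidence interval -0.82 to 0.48) on the brighter and 0.02 (standard error 0.19, 95% confidence interval -0.44 to 0.48) on the dimmer probe set. On the dimmer one the interval lies inside 1.6-fold in both directions. A disagreement in sign was not rare on this array: of 1543 genes with exactly 2 probe sets, 27.5% had differences of opposite sign.

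PTGES, the microsomal synthase that makes prostaglandin E2, had intensities of 791.4, 558.6 and 706.4 in Sham 1 to 3. It had 446.6, 887.7 and 405.7 in CPB 1 to 3. CPB 2 was the highest of all 6 arrays, and CPB 1 and CPB 3 were the lowest. The Sham mean was 685 ± 118 (SD, n = 3), the CPB mean 580 ± 267 (SD, n = 3), and the log2 difference was -0.32 (standard error 0.33, 95% confidence interval -1.12 to 0.48). The log2 SD was 0.256 in Sham and 0.616 in CPB. PTGDS, the lipocalin-type synthase of prostaglandin D2, was the most even member, with 217.4, 190.9 and 192 in Sham 1 to 3 and 221.7, 220.6 and 195.9 in CPB 1 to 3. Its highest array was 1.16-fold above its lowest, and the difference of 0.09 (standard error 0.12) had a 95% confidence interval of -0.20 to 0.38, inside 1.6-fold in both directions.

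Among the receptors, PTGER3 encodes EP3, a prostaglandin E2 receptor that lowers cyclic AMP and opposes vasopressin in the tubule. It had intensities of 320.3, 120.7 and 225.1 in Sham 1 to 3 and 125.8, 169.8 and 134 in CPB 1 to 3. Sham 2 was the lowest of the 6 arrays, below every CPB array, while Sham 1 and Sham 3 were the highest. The Sham mean was 222 ± 99.8 (SD, n = 3), the CPB mean 143 ± 23.4 (SD, n = 3). The log2 difference was -0.54 (standard error 0.36, 95% confidence interval -1.42 to 0.35), with the smallest p among the members.

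PTGFR, the receptor for prostaglandin F2-alpha, was again read by a pair of probe sets. The brighter had 108.7, 112.1 and 107 in Sham 1 to 3, a log2 SD of 0.034, and 132.2, 68.7 and 107.7 in CPB 1 to 3, a log2 SD of 0.483. The Sham arrays lay close together, with CPB 1 above and CPB 2 below all of them. The dimmer had 31.3, 44.2 and 43.2 in Sham and 40.2, 36.4 and 49.1 in CPB. The differences were -0.14 (standard error 0.25, 95% confidence interval -0.74 to 0.46) and 0.09 (standard error 0.19, 95% confidence interval -0.38 to 0.56). CPB 2 lay low on both, below 5 arrays on the brighter and above only Sham 1 on the dimmer. Only PTGDS and the dimmer probe sets of PTGS1 and PTGFR, 3 of the 8, had an interval inside 1.6-fold in both directions.

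**Figure D2:**
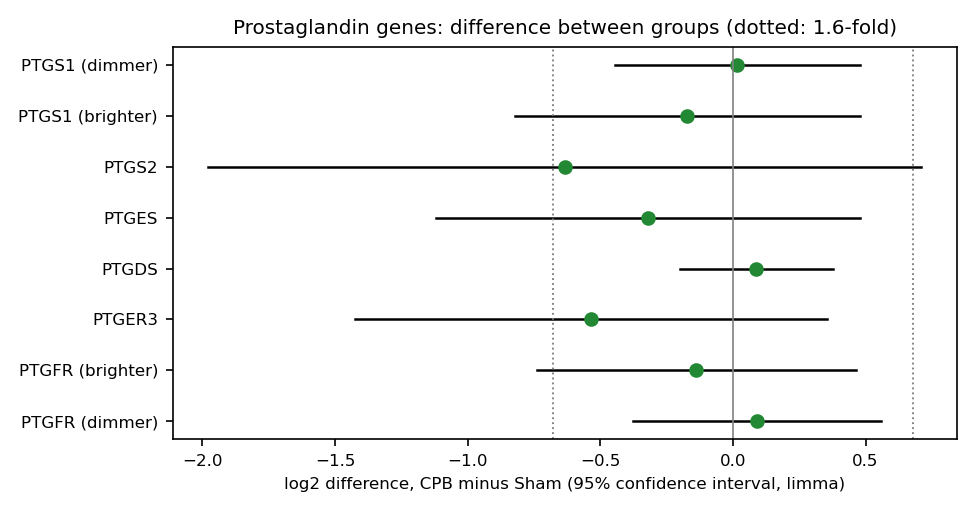
Difference of mean log2 intensity, CPB minus Sham, for the 8 prostaglandin probe sets, with limma's 95% confidence interval as a bar; dotted lines mark 1.6-fold. Every interval crosses 0, and the intervals of PTGS2 (-1.98 to 0.71) and PTGER3 (-1.42 to 0.35) are the widest.

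Across the 6 animals, PTGS2, PTGES, PTGER3 and the brighter PTGS1 probe set had the same 3 arrays at the top: Sham 1, Sham 3 and CPB 2. Over all probe sets 16.4% had these 3 arrays highest and 21.4% had them lowest, so the pattern is common on these arrays. With each probe set centred on its mean over the 6 arrays, PTGS2 was at 0.60, -0.56 and 0.90 in Sham 1 to 3 and at -0.84, 0.67 and -0.78 in CPB 1 to 3. The mean of 16 of 26 listed proximal tubule markers, centred in the same way, was at -2.13, 1.09 and -0.31 in Sham and at 1.42, -1.62 and 1.55 in CPB. It was therefore low on the arrays where PTGS2 was high. Their summed intensity ranged from 3674 to 35291 in Sham and from 5167 to 44387 in CPB. The mean of 4 of 12 urothelium markers, which mark the lining of the renal pelvis, ran the other way, at 0.51, -0.87 and 1.70 in Sham and -0.88, 0.49 and -0.95 in CPB. Of these 4 urothelial plaque genes UPK3A (415.2, 61.6 and 527.6 in Sham, 55.4, 836.6 and 56.6 in CPB) and UPK1B (206.6, 33.4 and 1207.7 in Sham, 35.3, 115.8 and 28.4 in CPB) had Sham 1, Sham 3 and CPB 2 highest. UPK1A (40.2, 36.9 and 109.4 in Sham, 36.8, 30.3 and 40.4 in CPB) and UPK2 (63.7, 64 and 86 in Sham, 64.2, 71.5 and 58.4 in CPB) did not, with CPB 2 the lowest array for UPK1A. The 8 measured smooth muscle and pericyte markers (0.64, -0.43 and 0.41 in Sham, -0.58, 0.46 and -0.50 in CPB) and the 13 endothelial markers (0.56, -0.29 and 0.27 in Sham, -0.47, 0.52 and -0.59 in CPB) also had Sham 1, Sham 3 and CPB 2 highest. So did the 9 measured collecting duct markers (0.04, -0.19 and 0.24 in Sham, -0.29, 0.51 and -0.30 in CPB), the 8 lymphocyte markers (0.28, -0.15 and -0.10 in Sham, -0.36, 0.74 and -0.40 in CPB) and the 2 markers of thin limb and inner medulla (0.41, -0.20 and -0.01 in Sham, -0.37, 0.58 and -0.41 in CPB). The 12 fibroblast and interstitial cell markers did not, with 0.62, -0.25 and 0.14 in Sham and 0.21, -0.14 and -0.58 in CPB. Nor did the 5 thick ascending limb markers (-0.02, 0.35 and -0.60 in Sham, 0.49, -0.28 and 0.06 in CPB) or the 12 myeloid markers (0.20, -0.03 and 0.14 in Sham, -0.07, -0.03 and -0.20 in CPB). These values are list means, and single markers departed from them. Of the collecting duct markers AQP3, AVPR2, GATA3, KRT18 and KRT19 had Sham 1, Sham 3 and CPB 2 highest. ATP6V0D2, SCNN1A and SCNN1B had Sham 2, CPB 1 and CPB 3 highest, and HSD11B2 had Sham 2 highest. Of the thin limb and inner medulla markers S100A4 followed its list mean. AQP1 had Sham 3 and CPB 2 lowest, at 3932.2 and 4465.4. Among the endothelial markers KDR, FLT1, ENG and VWF did not have Sham 1, Sham 3 and CPB 2 as their highest arrays. Nor did DES, MYL9 and SMTN among the smooth muscle markers, or CD2, CD4 and CD79B among the lymphocyte markers. Since whole tissue was measured, fewer cells of a type and less RNA per cell cannot be told apart. Only the proximal tubule mean was also fitted as a covariate, and that fit cannot decide what part tissue makeup has in the prostaglandin values.

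**Figure D3:**
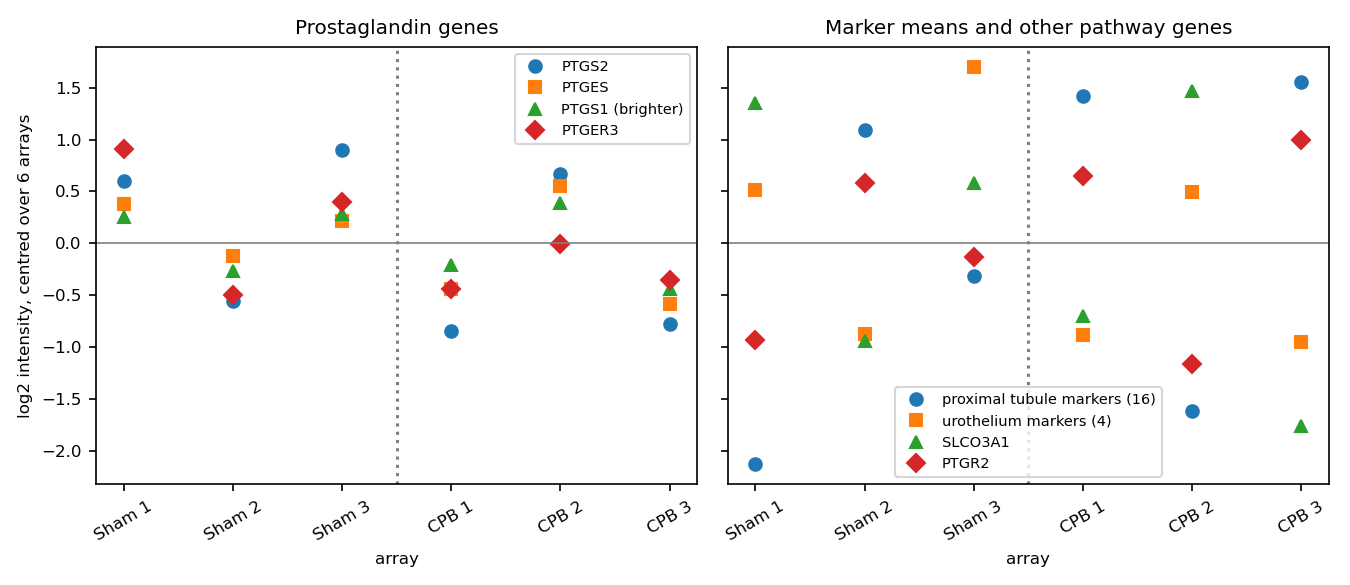
Log2 intensity centred over the 6 arrays. Left, PTGS2, PTGES, PTGER3 and the brighter PTGS1 probe set. Right, the mean of 16 proximal tubule markers, the mean of 4 urothelium markers, SLCO3A1 and PTGR2. The vertical line parts Sham from CPB. PTGS2 lies at 0.60, 0.90 and 0.67 in Sham 1, Sham 3 and CPB 2, where the proximal tubule mean lies at -2.13, -0.31 and -1.62.

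With the proximal tubule mean as a covariate the PTGS2 difference was -0.26 (standard error 0.31), that of PTGER3 -0.30 (standard error 0.23) and that of PTGES -0.09 (standard error 0.16). Each was smaller in size than without the covariate, as were the brighter PTGS1 (0.01) and the dimmer PTGFR (-0.02) probe sets. The brighter PTGFR probe set was larger in size, at -0.27 (standard error 0.20) against -0.14 without the covariate. So were PTGDS (0.13 against 0.09) and the dimmer PTGS1 probe set (-0.08 against 0.02). No member met the threshold with the covariate. The proximal tubule mean itself was 0.9 higher in CPB on the log2 scale, and all 16 of its markers had a higher mean in CPB. This fit therefore cannot tell tissue makeup from an effect of bypass. Single arrays decided some calls. Without Sham 2, PTGER3 met the study's threshold, at -0.92 (standard error 0.22, adjusted p = 0.533 from limma), as did 701 probe sets, or 2.92% of all. Without CPB 2, PTGS2 met it, at -1.13 (standard error 0.45, adjusted p = 0.742 from limma), and PTGES was at -0.67 (standard error 0.19), just short of 1.6-fold. Without CPB 2 the threshold was met by 693 probe sets, or 2.89% of all. With both Sham 2 and CPB 2 left out, PTGS2 was at -1.57 (adjusted p = 0.0351 from limma), PTGER3 at -1.05 (adjusted p = 0.0825) and PTGES at -0.81 (adjusted p = 0.0618), and each met the study's threshold. Over all alternatives run the adjusted p ranged from 0.0351 to 1 for PTGS2, from 0.0825 to 1 for PTGER3 and from 0.0618 to 1 for PTGES, each lowest in this fit. Without both arrays 3070 probe sets, or 12.8% of all, met that threshold, against 73 with all 6. These 2 arrays were set aside because earlier results had shown them to stand apart, which left 2 arrays in each group. For PTGS2, PTGER3 and PTGES, Sham 2 was the lowest Sham array and CPB 2 the highest CPB array. Leaving both out therefore had to enlarge these differences, and no conclusion is drawn from the p-values of this fit. The Sham arrays that are then left are those with low proximal tubule markers and the CPB arrays those with high ones, so group and tissue makeup cannot be told apart in that fit.

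Of 94 further genes of the prostaglandin pathway, its branches and its regulators, 49 were measured, each on its brightest probe set. On these probe sets none met the study's threshold or had an unadjusted p under 0.05, against 0.304% and 1.4% of all probe sets. Over all 74 probe sets of the 49 genes 1 met it, the dimmest of 3 for EGR1, an immediate early transcription factor. It had 46.6, 34.9 and 75.1 in Sham 1 to 3 and 24, 33.9 and 31.7 in CPB 1 to 3, with no overlap and a difference of -0.75 (standard error 0.31, unadjusted p = 0.0495, adjusted p = 0.995 from limma). On the brighter EGR1 probe sets the groups overlapped, at -0.87 (standard error 0.86) on the brightest and -1.43 (standard error 0.80) on the other. The mean was higher in CPB for 27 and lower for 22, with a median difference of 0.015, against 0.033 over 6765 named genes. On the brightest probe sets the groups did not overlap for 1 gene, ANXA1, which is 1 of 49 against 5.27% of all probe sets, and over all 74 for 3, the others being EGR1 and a dim probe set of NR3C1, the glucocorticoid receptor (-0.19, standard error 0.12). For that NR3C1 probe set the groups only just parted, with Sham 3 and CPB 3 both at 15.1 as rounded, and on the other NR3C1 probe sets they overlapped. ANXA1 encodes annexin A1, which restrains phospholipase A2. It had 1121.4, 599.4 and 875.7 in Sham 1 to 3 and 583.7, 592.1 and 518.7 in CPB 1 to 3, and the difference was -0.57 (standard error 0.24, unadjusted p = 0.0536). Sham 2 was only slightly above CPB 2, and without Sham 2 ANXA1 met the study's threshold, at -0.81 (standard error 0.16, adjusted p = 0.533 from limma).

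Of 11 measured genes of arachidonic acid release and reuptake, the mean was higher in CPB for 8 (median 0.11). LPCAT3, which puts arachidonic acid back into membrane lipids, had the smallest p of this list, with a difference of 0.79 (standard error 0.46) and the same sign on its dimmer probe set (0.65, standard error 0.54). It had 201, 472.6 and 207.7 in Sham 1 to 3 and 601.5, 274.5 and 613.4 in CPB 1 to 3, so Sham 2 lay above CPB 2. Without Sham 2 and without CPB 2, LPCAT3 met the study's threshold, at 1.19 (adjusted p = 0.533 from limma) and 1.17 (adjusted p = 0.742). PLCG1, a phospholipase C, was at -0.27 (standard error 0.19).

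Of 5 measured further synthases and receptors, 3 had a lower mean in CPB (median -0.046). CBR1, a carbonyl reductase that converts prostaglandin E2 to F2-alpha, had 272.7, 1201.1 and 155.7 in Sham 1 to 3 and 282.9, 79 and 192.1 in CPB 1 to 3. Sham 2 was the highest array and CPB 2 the lowest, and the difference was -1.19 (standard error 0.85). With the proximal tubule covariate CBR1 met the study's threshold, at -1.68 (standard error 0.61, adjusted p = 0.999 from limma), as did 109 probe sets, or 0.454% of all. Thromboxane synthase, TBXAS1, was at -0.05 (standard error 0.14).

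Of 6 measured transport and breakdown genes, the mean was higher in CPB for 4 (median 0.13). The reductases that inactivate prostaglandins after the first oxidation ran against PTGS2 across the arrays. PTGR2 had 1128.3, 3233.3 and 1965.5 in Sham 1 to 3 and 3386.8, 961 and 4309 in CPB 1 to 3. PTGR1 had 206.4, 728.9 and 218.1 in Sham and 530.4, 226.7 and 376.3 in CPB. Both were lowest in Sham 1, Sham 3 and CPB 2, as was ZADH2, another such reductase. SLCO3A1, a transporter that can carry prostaglandins, was highest there, with 1483.3, 303.9 and 874.8 in Sham and 358.4, 1614.8 and 171.6 in CPB. The differences between the groups were small beside this spread, at 0.32 (standard error 0.66) for PTGR2, 0.15 (standard error 0.57) for PTGR1 and -0.66 (standard error 0.95) for SLCO3A1. Of all 49 pathway genes 13 had Sham 1, Sham 3 and CPB 2 as their highest arrays, beside 16.4% of all probe sets. As their lowest arrays 12 of the 49 had them, beside 21.4% of all probe sets, so running against PTGS2 is common on these arrays.

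**Figure D4:**
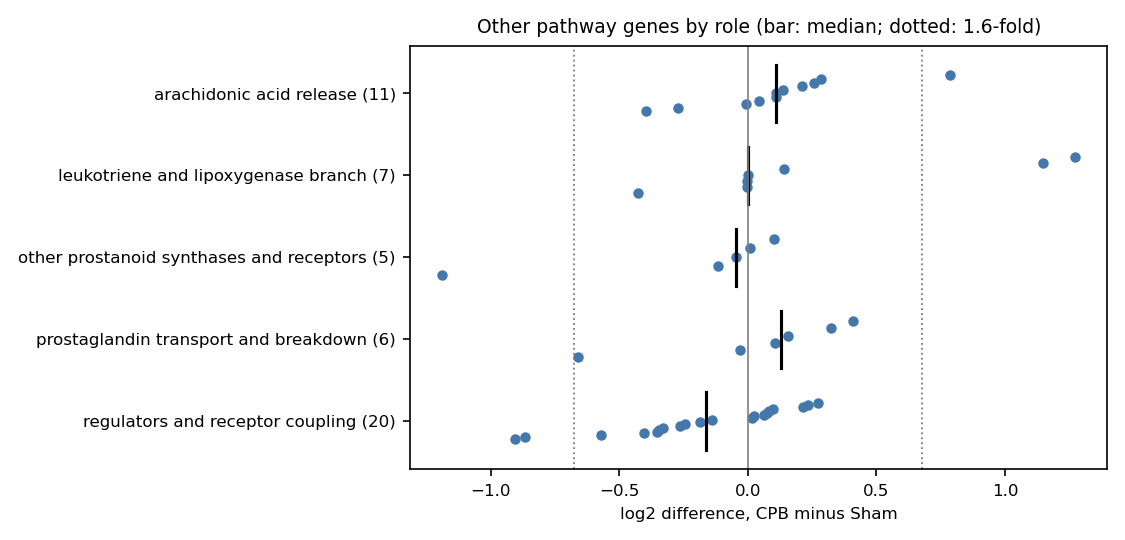
Difference of mean log2 intensity, CPB minus Sham, for 49 further pathway genes grouped by role, 1 point per gene on its brightest probe set; the bar is the median of a group and dotted lines mark 1.6-fold. Medians lie between -0.163 and 0.13, and no gene beyond the dotted lines passed the test.

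In the leukotriene branch the mean was higher in CPB for 4 of 7 measured genes (median 0.001). ALOX5AP, the protein that presents arachidonic acid to 5-lipoxygenase, had 161.8, 126.3 and 219.7 in Sham 1 to 3 and 105.3, 154.3 and 113.8 in CPB 1 to 3, a difference of -0.43 (standard error 0.25). GGT1, which trims leukotriene C4 and is also among the 16 proximal tubule markers, was at 1.27 (standard error 0.80). Without CPB 2 GGT1 met the study's threshold on that probe set, its brightest, at 2.04 (standard error 0.60, adjusted p = 0.742 from limma). Its dimmer probe sets had smaller differences with all arrays, at 0.39 (standard error 0.32), 0.13 (standard error 0.14) and 0.18 (standard error 0.20). Of 20 measured regulators and coupling proteins 11 had a lower mean in CPB (median -0.163). CREB1, a factor that acts downstream of cyclic AMP, was at 0.21 (standard error 0.15), and at 0.05 (standard error 0.26) on its dimmer probe set. CEBPD, a factor of the acute phase that can drive PTGS2, was at 0.27 (standard error 0.20), with the same sign on its dimmer probe sets. IL1R1, the interleukin 1 receptor, met the threshold without Sham 2, at -0.85 (standard error 0.15, adjusted p = 0.533 from limma), and was at -0.40 (standard error 0.39) with all arrays. On its dimmer probe set the difference with all arrays was 0.01 (standard error 0.13).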

How the data were processed

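Each Affymetrix GeneChip Porcine Genome Array was hybridised with RNA of 1 animal. Scans were read with GCOS and normalised with RMA in ArrayStar, which subtracts background, applies quantile normalization and sums up probes by median polish; RMA is also the tool that the submitters' processing notes name. The authors deposited the resulting intensities of 24123 probe sets, which are on a linear scale by their size and range. No genome build is named for them, so no positions are given, and probe sequences were not used here.

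After 124 control probe sets were removed, log2 intensities of 23999 probe sets were compared with limma 3.58.1 in R 4.3.3 (lmFit and eBayes, group as the only term), with Benjamini-Hochberg adjustment over all of them. Gene names came from the platform annotation, which gives 10099 probe sets 1 symbol and 198 several, and lists no gene for 13826. Of the 10099, 9989 had a current symbol by gene ID, the same in each case.

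Samples were grouped by the titles of their records. The labels call the arrays of a group biological replicates. Named genes were all members, the 8 pathway genes with the smallest unadjusted p, tissue markers set beside them, and the 3 genes closest in pattern to PTGS1 and to PTGS2. EGR1, NR3C1, IL1R1, PTGR1, PTGR2, ZADH2, SLCO3A1 and TBXAS1 fall outside that rule and were added once their values were known. The members and lists were chosen with earlier results of these data known. Alternatives were the methods' Student t-test, other spread estimates, array weights, other normalizations, filters, fold minimums of 1.5 and 2, the replicate number as a block, a proximal tubule covariate, and arrays left out. The fit was tested on simulated data with known answers.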

Additional observations from a re-analysis of the deposited data

How the results depend on the processing

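None of the 8 members met the study's threshold with limma, with either form of the methods' t-test, an intensity trend, other normalizations, control probe sets kept, the proximal tubule covariate or other fold minimums. The count was 2 with array weights, whose estimation stopped before convergence, and 3 without Sham 2 and CPB 2 together. With 1 array left out it ranged from 0 to 1. Members with an unadjusted p under 0.05 numbered 4 with array weights and 4 without Sham 2 and CPB 2 together, and 0 to 2 with 1 array left out. The threshold, which also asks for that p, was met by 8.82% of all probe sets with array weights. Without Sham 2 and CPB 2 together 12.8% met it, and 0.217% to 2.92% with 1 array left out. With all 6 arrays weighted equally the share was 0.304%. Of the 49 pathway genes the threshold was met by 15 with array weights and 17 without Sham 2 and CPB 2 together. It was met by 1 with the proximal tubule covariate, against 0.454% of all probe sets, and by 0 to 3 with 1 array left out. Over all probe sets it was met by 73, by 30 with the methods' t-test on log2 values and by 26 on linear ones, by 2116 with array weights, by 3070 without Sham 2 and CPB 2 together, by 21 at a fold minimum of 2, and by 52 (without CPB 3) to 701 (without Sham 2) with 1 array left out. Both t-test counts lie below the number of transcripts that the paper reports from its own Student's t-test at these limits. Its calculation was thus not reproduced, and the reason was not tested. Leaving out the lowest 25% of probe sets by mean removed PTGS2 and gave it no value.

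The direction was the same under every alternative run for PTGS2, PTGES, PTGER3 and PTGDS. The dimmer PTGS1 probe set turned to -0.079 and the brighter to 0.006 with the covariate, and the dimmer PTGFR probe set to -0.022. The brighter PTGFR probe set turned to 0.205 with array weights and to 0.146 without Sham 2 and CPB 2 together. With 1 array left out the dimmer PTGS1 probe set ranged from -0.125 to 0.138, the brighter from -0.41 to 0.005, PTGFR from -0.344 to 0.128 on the brighter and from -0.071 to 0.185 on the dimmer, PTGS2 from -1.129 to -0.34, PTGES from -0.673 to -0.108, PTGER3 from -0.92 to -0.216 and PTGDS from 0.056 to 0.15. The cause of these shifts was not tested. The replicate numbers do not pair the animals by any label, and deviations of same-numbered arrays correlated at -0.389, -0.681 and -0.016. With the replicate number as a block 0 members and 76 of all probe sets met the threshold, and the PTGS2 difference was -0.634.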

Other observations

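Among 10061 other probe sets with 1 symbol, those whose log2 values, centred over the 6 arrays, lay closest to PTGS2 were GLIPR2, LAPTM5 and HOXB7, with mean absolute differences of 0.10, 0.112 and 0.116. LAPTM5, a lysosomal membrane protein of blood cells, had 584.3, 245.1 and 555.9 in Sham 1 to 3 and 179.1, 486.5 and 191.8 in CPB 1 to 3. HOXB7, a homeobox factor of the collecting duct lineage, had 863.3, 359.2 and 867.3 in Sham and 348.2, 973.7 and 333 in CPB. The closest to the brighter PTGS1 probe set were KIF2A, TRAM2 and DDX50, at mean absolute differences of 0.02, 0.043 and 0.05. These are descriptions over 6 arrays and carry no test.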
